A study of Homo sapiens with 6 samples.

Results

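Epithelial integrins and laminin-332 were followed in BxPC-3, a cell line long established from a pancreatic adenocarcinoma, as the 9 genes ITGA2, ITGA3, ITGA6, ITGAV, ITGB1, ITGB4, ITGB6, LAMA3 and LAMB3. The members were taken by gene symbol, and each of the 9 was found once among the 26255 symbols of every deposited file. The 6 libraries were 2 from Parent cells without treatment, 2 from cells given the negative control RNA duplex labelled NC-1 (NC in the following), and 2 from cells given the miR-4711-5p duplex. The study collected RNA 36 h after transfection. The labels name a single cell line and no further alleles or agents. No time is given for Parent. In NC against Parent, transfection, duplex and any difference in culture time cannot be told apart. Nothing in the labels says whether the 2 libraries of a group came from separate cultures, so p-values measure only the spread between these libraries.

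Integrins are receptors made of an α and a β chain that hold epithelial cells to the matrix beneath them. Laminin-332 is a basement membrane protein of epithelia, whose α3 and β3 chains are encoded by LAMA3 and LAMB3, and is bound by the receptors of ITGA3 with ITGB1 and of ITGA6 with ITGB4. The ITGA6 and ITGB4 chains form the core of hemidesmosomes, the junctions that tie the keratin network to the basement membrane. In extracts of whole cultures, fewer cells of a type and less RNA per cell cannot be told apart.

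A microRNA pairs with mRNA chiefly through its seed, bases 2 to 8, shown in capitals in the mature strand. RefSeq places that strand on the minus strand of chr1:59733269-59733291 (GRCh38.p14). ITGB6 was the only member with a match in an annotated 3′ UTR, and that site is shown with the match in capitals and the mRNA read 5′ to 3′. Its coordinates are on GRCh37, the same build as the hg19 of the deposited values.
hsa-miR-4711-5p: uGCAUCAGgccagaagacaugag
ITGB6, 3′ UTR, chr2:160956527-160956533, minus strand: ccctttatgttcctgaCTGATGCgcagaa

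The deposited values are FPKM, read numbers scaled to exon length and to library size, so levels of different genes can be set side by side per length. They summed to between 493145 and 550772 per library, and the read numbers behind them are not known. From the steps between the lowest values, the library scale relative to the first Parent library was between 0.751 and 0.874 in the other control libraries. It was 1.08 and 1.21 after miR-4711-5p, and stands for read depth only roughly. KLF5, the known target used to check the treatment, was at 114 and 124 FPKM in Parent, 115 and 120.3 in NC and 66.8 and 59.2 after miR-4711-5p, 1.86-fold below NC (limma adjusted p = 0.000116). The 6 epithelial markers examined (EPCAM, CDH1 and the keratins KRT7, KRT8, KRT18 and KRT19) summed to between 5195 and 6247 FPKM in every library. Of these CDH1, E-cadherin, was between 109 and 117 FPKM in the 4 control libraries and at 28.3 and 30.9 after miR-4711-5p. Against NC 3 of the 6 were called lower, CDH1, KRT19 and KRT7 with log2 fold changes of -1.86, -0.50 and -0.17, and 3 higher, KRT18, KRT8 and EPCAM with 0.33, 0.25 and 0.24. The highest of 6 fibroblast markers reached 2.35 FPKM and the highest of 6 blood cell markers 0.684. Among 4 endothelial markers PECAM1, VWF and KDR stayed at or below 0.319 FPKM, and CDH5 reached 3.16. The summed endothelial list was 1.39 and 1.33 FPKM in Parent, 3.53 and 3.25 in NC and 0.775 and 0.649 after miR-4711-5p, with CDH5 making up most of it. Its part in the results was not tested.

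All 9 members were well expressed in Parent cells. ITGB1, the β chain shared by the largest number of integrins, was the highest member with 415 ± 18.5 FPKM (SD, n = 2 libraries) and stood in place 193 of all symbols. ITGA3 followed with 294 ± 12.6, ITGA6 with 189 ± 0.647 and ITGB4 with 148 ± 7.52. LAMA3 with 85.6 ± 0.0373, LAMB3 with 77.5 ± 3.17 and ITGA2 with 69.5 ± 1.28 formed a middle group, and ITGAV with 38.5 ± 2.47 and ITGB6 with 21.0 ± 0.368 were lowest. In NC the order differed, with ITGB4 above ITGA6 and with ITGA2 above LAMA3 and LAMB3, and neighbours did not overlap in their libraries in Parent or in NC. The order after miR-4711-5p was ITGB1, ITGA3, ITGA2, ITGA6, LAMB3, ITGB4, ITGAV, LAMA3 and ITGB6, where ITGA2 overlapped ITGA6 and LAMB3 overlapped ITGB4.

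**Figure D1:**
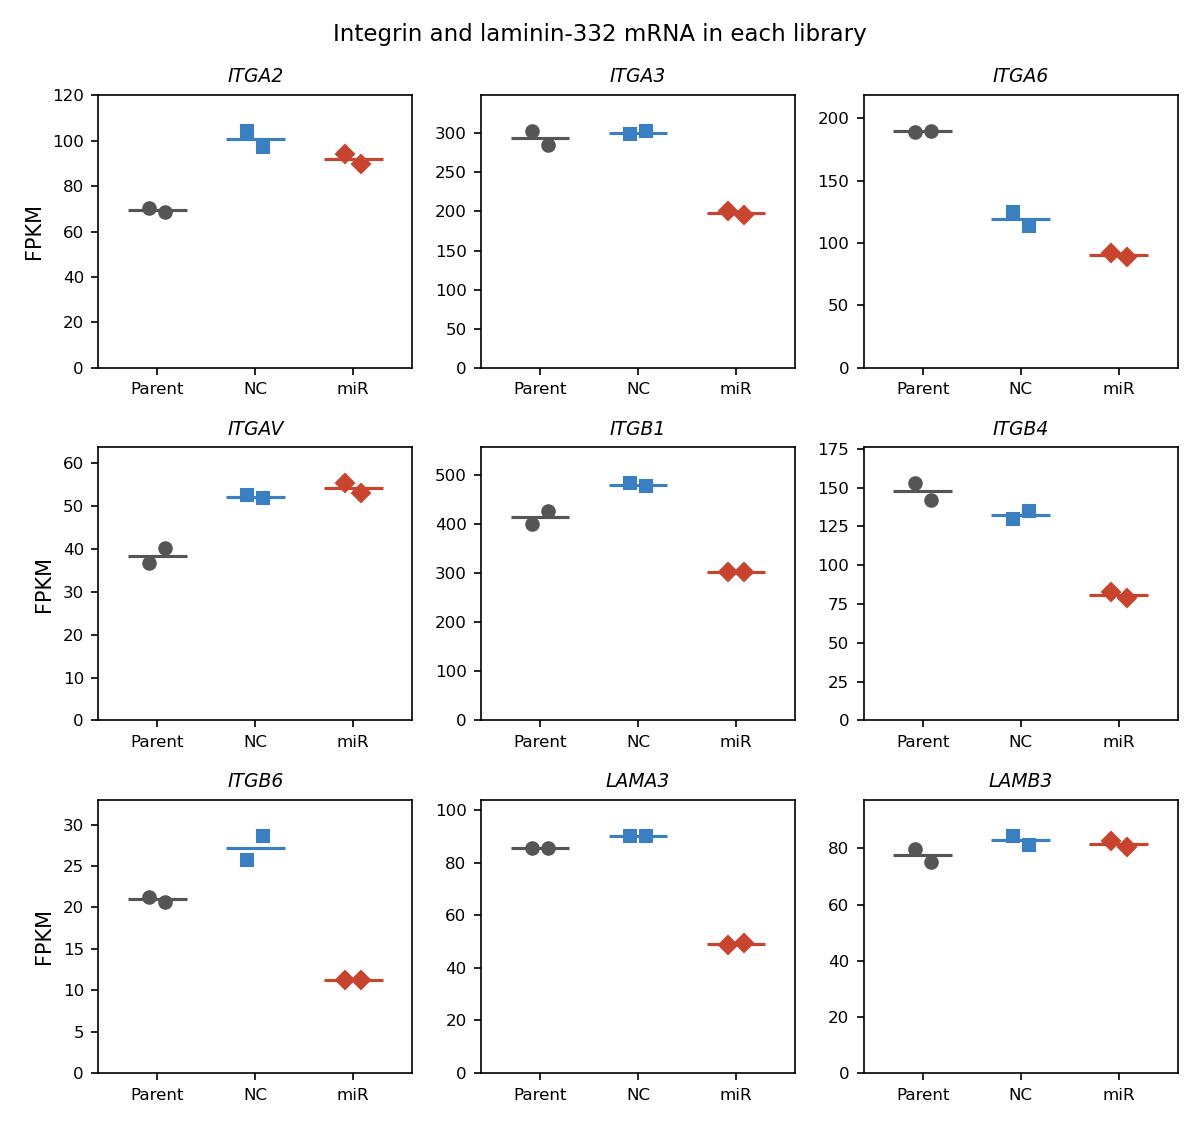
FPKM (vertical axis, starting at 0, scaled per gene) of the 9 members in the 2 libraries of Parent, NC and miR-4711-5p cells (points) with the group mean (line). Both miR-4711-5p libraries lie below all 4 control libraries for ITGA3, ITGA6, ITGB1, ITGB4, ITGB6 and LAMA3, and LAMB3 is at 81.6 FPKM with miR-4711-5p against 82.9 in NC.

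To see what miR-4711-5p changed beyond transfection of a duplex, its libraries were compared with NC. Of the 9 members 6 fell, none rose and 3 did not pass the threshold (limma on log2(FPKM + 1), Benjamini-Hochberg adjusted p under 0.05 over 12040 genes). Among all genes tested 39.6% were called, 21.2% lower and 18.4% higher. With a filter of a mean of 5 FPKM, which all 9 members pass, 8874 genes were tested, and 2255 were lower and 1920 higher. The decreases ran from 1.32-fold for ITGA6 to 2.42-fold for ITGB6. The median log2 fold change of the 9 was -0.60, and that of all genes tested was 0.0038. With a change of at least 1.5-fold also required, 5 members were lower, against 6.18% of all genes, with 10.8% called in either direction.

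Among the β chains ITGB6, whose protein pairs with that of ITGAV and can activate latent TGF-β, had 21.2 and 20.7 FPKM in Parent, 25.7 and 28.7 in NC, and 11.2 in both miR-4711-5p libraries. The groups did not overlap, and miR-4711-5p was the lowest and NC the highest. The log2 fold change against NC was -1.20 ± 0.06 (SE, limma adjusted p = 1.76e-05), at percentile 0.905 of all genes tested.

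ITGB1 had 402 and 428 FPKM in Parent, 484 and 477 in NC, and 302 in both miR-4711-5p libraries. It was 1.59-fold lower than in NC (log2 fold change -0.67 ± 0.04 SE, limma adjusted p = 4.42e-05). ITGB1 has a pseudogene, ITGB1P1, and reads shared with it were not measured.

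ITGB4, the long β chain particular to hemidesmosomes, had 153 and 142 FPKM in Parent, 130.0 and 135 in NC and 83.0 and 78.9 after miR-4711-5p. Its decrease against NC was 1.63-fold (log2 fold change -0.70 ± 0.05 SE, limma adjusted p = 8.74e-05). The annotation of ITGB4 (chr17:73717408-73753899, plus strand) overlaps that of GALK1 on the other strand. GALK1 was lower than ITGB4 in every library, with averages of 6.68 FPKM in Parent, 5.89 in NC and 7.75 after miR-4711-5p. With miR-4711-5p GALK1 was called higher than in NC (log2 fold change 0.35, limma adjusted p = 0.00814). Against Parent it was not called (0.19, limma adjusted p = 0.0686), while ITGB4 was called lower in both comparisons. The part of GALK1 reads in the ITGB4 values was not tested. For NC against Parent the log2 fold change was -0.16 for both genes, and neither was called.

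The α chains divided. ITGA3, the α chain of the main laminin-332 receptor of spread epithelial cells, was at 303 and 285 FPKM in Parent, 298 and 303 in NC and 200.3 and 195 after miR-4711-5p. The control groups overlapped, and the miR-4711-5p libraries were 1.52-fold below NC (log2 fold change -0.60 ± 0.04 SE, limma adjusted p = 8.37e-05). ITGA6 was at 189 and 189.9 FPKM in Parent, 125 and 114 in NC and 92.0 and 88.8 after miR-4711-5p, so that it was lower in NC than in Parent and lower again with miR-4711-5p. Against NC its log2 fold change was -0.39 ± 0.05 (SE, limma adjusted p = 0.00120).

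ITGA2, the α chain of a collagen receptor, and ITGAV, the α chain of receptors for vitronectin and latent TGF-β, did not pass the threshold against NC. ITGA2 had 70.4 and 68.6 FPKM in Parent, 104 and 97.1 in NC, and 94.0 and 89.7 after miR-4711-5p. Both miR-4711-5p libraries were under both NC libraries, with a log2 fold change of -0.13 and a 95% interval from -0.25 to -0.01 (limma adjusted p = 0.0819). ITGAV had 36.7 and 40.2 FPKM in Parent, 52.5 and 51.8 in NC, and 55.4 and 53.2 after miR-4711-5p, and its log2 fold change against NC was 0.06 with an interval from -0.08 to 0.19 (limma adjusted p = 0.463).

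LAMA3 and LAMB3 did not move alike. LAMA3, the α3 chain that carries the integrin-binding domains, was at 85.6 FPKM in both Parent libraries, at 90.0 and 90.3 in NC and at 48.6 and 49.5 after miR-4711-5p. It was 1.84-fold lower than in NC (log2 fold change -0.87 ± 0.04 SE, limma adjusted p = 1.20e-05). LAMB3, the β3 chain, was at 79.8 and 75.3 FPKM in Parent, 84.6 and 81.2 in NC and 82.7 and 80.6 after miR-4711-5p. These libraries overlapped with NC, and the log2 fold change of -0.02 had an interval from -0.14 to 0.09 (limma adjusted p = 0.752).

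Within each library the levels of partner chains were set against each other, since these proteins are assembled from several chains. LAMA3 stood level with LAMB3 in the controls, with ratios from 1.06 to 1.14, and at 0.588 and 0.614 after miR-4711-5p.

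For the integrin chains, ITGAV over ITGB6 was 1.73 and 1.94 in Parent, 2.04 and 1.81 in NC, and 4.94 and 4.73 after miR-4711-5p. ITGA6 over ITGB4 moved less, from 1.24 and 1.34 in Parent to 0.959 and 0.846 in NC and 1.11 and 1.13 after miR-4711-5p. The 4 α chains together were 1.43 ± 0.0897 times ITGB1 in Parent, 1.19 ± 0.00898 times in NC and 1.44 ± 0.0350 times after miR-4711-5p (SD, n = 2 each). This sum covers the members only, so other α chains such as ITGA5 are not in it. It counts ITGA6 and ITGAV in full, whose proteins also pair with those of ITGB4 and ITGB6. An exact permutation test of 2 libraries against 2, two-sided, cannot give a p-value below 0.33. It gave 0.33 for the change against NC of each of these ratios, since their groups did not overlap.

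**Figure D2:**
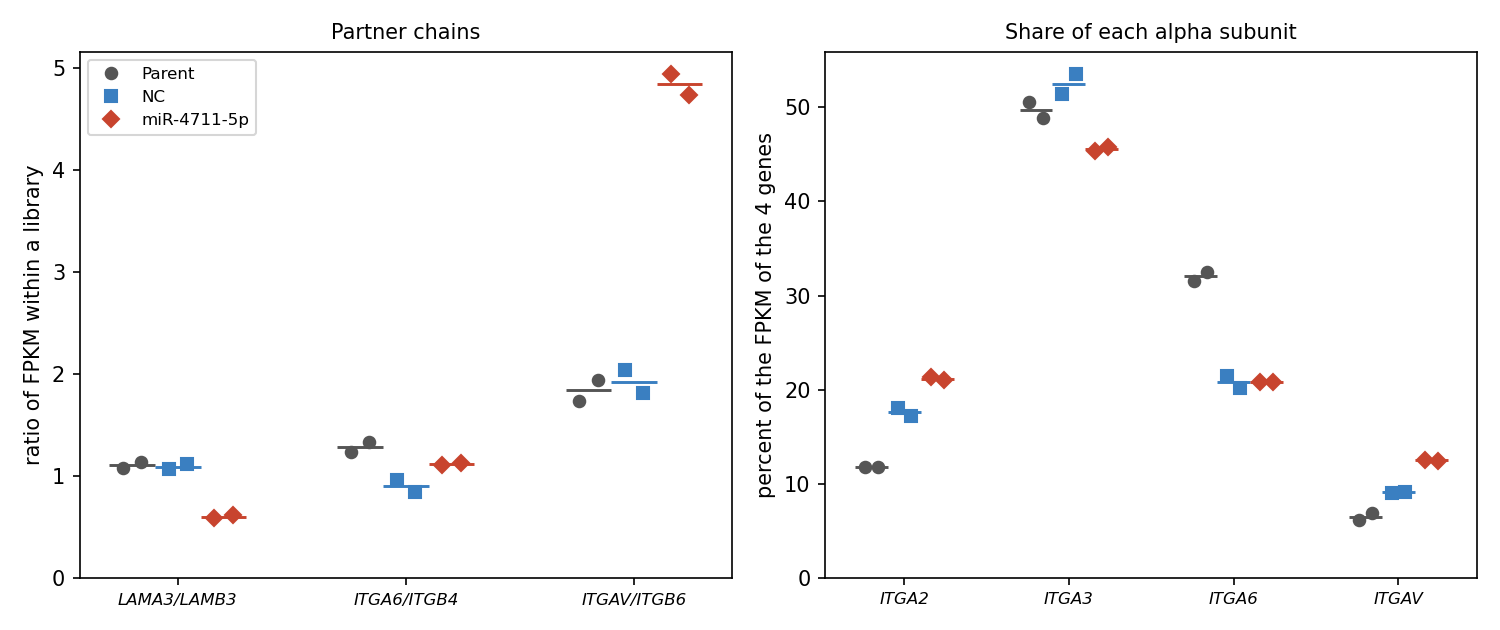
Left, ratio of the FPKM of partner chains within each library (points, with group means as lines, axis from 0). Right, share of each of 4 α chains in their summed FPKM. LAMA3/LAMB3 is lowest and ITGAV/ITGB6 is highest in the miR-4711-5p libraries, while the share of ITGA6 is 20.8% in both NC and miR-4711-5p and 32.0% in Parent.

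Integrin levels also differed between NC and Parent. Compared with Parent, 4 members rose in NC, 1 fell and 4 did not pass the threshold, where 27.2% of all genes tested were called, 12.1% higher and 15.1% lower. With at least 1.5-fold also required, ITGA6 was the 1 member called, against 4.16% of all genes in either direction and 1.61% lower. ITGA2 rose 1.45-fold (log2 fold change 0.53, limma adjusted p = 0.00130), ITGAV 1.36-fold (limma adjusted p = 0.00297), ITGB6 1.30-fold (limma adjusted p = 0.00751) and ITGB1 1.16-fold (limma adjusted p = 0.0125). The call of ITGB1 was lost without the first Parent library or the first NC library. ITGA6 fell 1.59-fold (log2 fold change -0.67 ± 0.05 SE, limma adjusted p = 0.000616). The log2 fold changes of LAMA3 and LAMB3 were 0.07 and 0.10 and did not pass the threshold, which they did with upper-quartile scaling (0.13 and 0.16, limma adjusted p = 0.0458 and 0.0464). ITGB4 was lower in both NC libraries than in both Parent libraries (log2 fold change -0.16, limma adjusted p = 0.0656), and ITGA3 was at 301 ± 3.23 FPKM in NC against 294 ± 12.6 in Parent.

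Against Parent, the reference used for fold changes in the study, 6 members were lower with miR-4711-5p, 2 were higher and LAMB3 was not called, against 43.4% of all genes called, 24.7% lower and 18.7% higher. With at least 1.5-fold also required 4 members were lower and 0 higher, against 12.4% of all genes in either direction and 6.39% lower. This comparison shares its miR-4711-5p libraries with the one against NC, so the values are only given side by side. The median log2 fold change of the 9 members was -0.57, beside -0.01 for all genes tested. ITGA6 had the largest change, a 2.10-fold decrease (log2 fold change -1.06, limma adjusted p = 1.28e-05), where it had been 1.32-fold lower against NC. ITGB6 was 1.87-fold lower against Parent and 2.42-fold against NC, and ITGB1 was 1.37-fold and 1.59-fold lower. ITGB4 was 1.82-fold and LAMA3 1.75-fold lower against Parent. The log2 fold change of LAMB3 was 0.07 with an interval from -0.04 to 0.19 (limma adjusted p = 0.254), and 0.14 with upper-quartile scaling (limma adjusted p = 0.0499). The members higher than in Parent were ITGA2, by 1.32-fold, and ITGAV, by 1.41-fold, and both had also risen in NC. The miR-4711-5p libraries lay under all 4 controls for 6 of the 9 members, as they did for 26.3% of all genes tested, and above them for ITGAV, as for 23.8%. The same 6 members were called lower against both NC and Parent, as were 15.4% of genes.

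**Figure D3:**
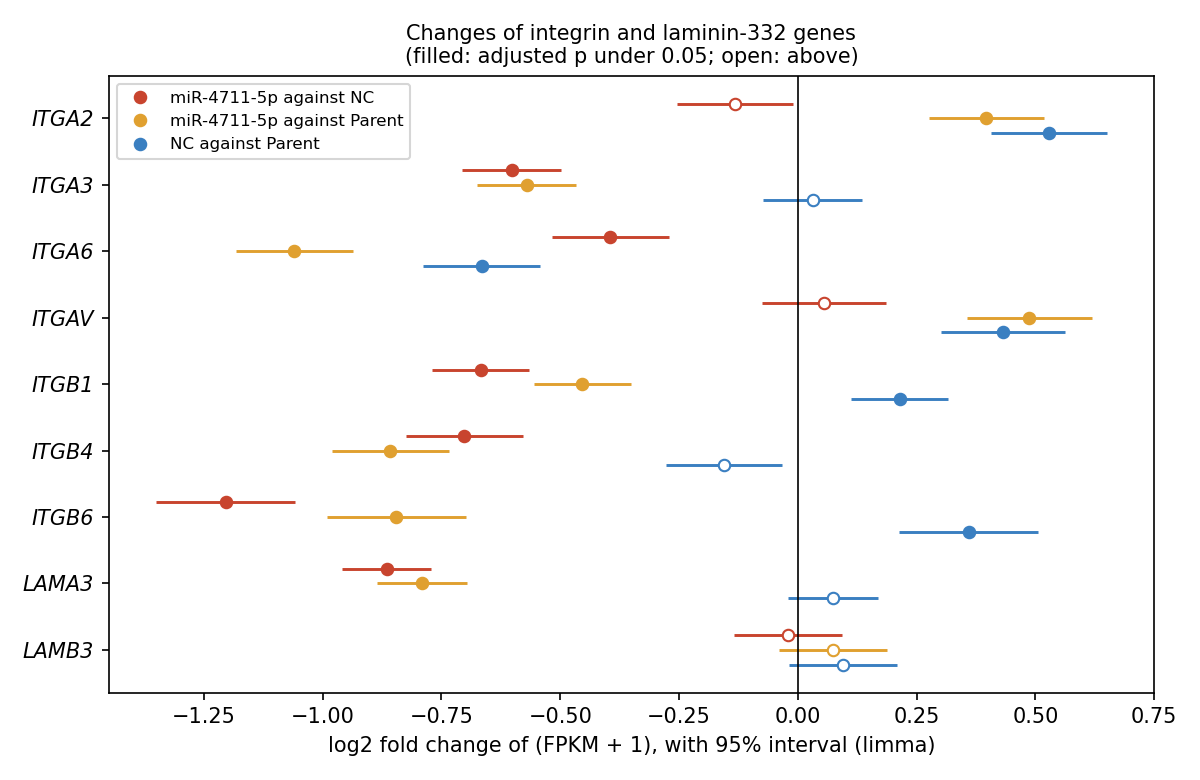
Log2 fold changes of (FPKM + 1) from limma with 95% intervals for the 9 members in the 3 comparisons (colours). Filled points are past an adjusted p of 0.05. ITGA2 and ITGAV are to the right of 0 against Parent for both duplexes, and ITGB6 lies at -1.20 against NC and 0.36 for NC against Parent.

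The seed matches printed above were searched as CTGATGCA (8mer), CTGATGC (7mer-m8) and TGATGCA (7mer-A1, which overlaps the 8mer) in the sense strand of GENCODE transcripts. Of the 9 members 1, ITGB6, had a match in its longest 3′ UTR, and 18.5% of the 10593 tested genes with an annotated 3′ UTR had one. The match in ITGB6 is a 7mer-m8 at base 1714 of a 3′ UTR of 2065 nt and is held by 2 of 5 coding transcripts, the canonical one among them. The longest 3′ UTRs of the other members were between 401 nt (LAMB3) and 4180 nt (ITGA2).

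In the longest coding sequence, 7 of the 9 members had a match. ITGB4 had none, and ITGA6 had none in its longest coding sequence but an 8mer in 3 of 7 coding transcripts, the canonical one among them. A match was found in 47.0% of tested genes with coding sequences of 2367 to 10002 nt, the range of the members. Of the 7 members with a match 4 fell against NC (ITGA3, ITGB1, ITGB6 and LAMA3) and 3 did not pass the threshold (ITGA2, ITGAV and LAMB3). ITGA6 and ITGB4 both fell. Over all genes tested, with or without a match, 21.2% were lower against NC. A link between match and change was not tested. A match is a description of the sequence only.

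Further genes of the integrin and laminin families, and of the lists in the next paragraphs, were counted from fixed lists. Each count against NC stands beside 21.2% of all genes tested that were lower and 18.4% that were higher. Of 19 further integrin subunits 7 passed the filter of a mean of 1 FPKM, and against NC 4 were lower and 1 was higher, with a median log2 fold change of -0.17. The 4 became 2 without the first NC, the second NC or the second miR-4711-5p library, or with a filter of 5 FPKM. ITGA5, the α chain of the classical fibronectin receptor, had 45.4 and 42.5 FPKM in Parent, 81.8 and 85.2 in NC and 24.0 and 23.5 after miR-4711-5p. It was thus 1.90-fold higher in NC than in Parent and 3.52-fold lower with miR-4711-5p than in NC (log2 fold change -1.77, limma adjusted p = 3.42e-06). ITGB8, another partner of ITGAV, was at 4.94 and 5.48 FPKM in Parent, 8.34 and 8.69 in NC and 15.0 and 14.1 after miR-4711-5p, a 1.71-fold increase over NC (limma adjusted p = 0.000308). ITGB2 and ITGB7, β chains of leukocyte integrins, fell from 2.30 and 2.10 FPKM in NC to 1.21 and 0.922 (limma adjusted p = 0.00567 and 0.0238).

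Of 9 further laminin chains 3 passed the filter, and all 3 were lower with miR-4711-5p than in NC, with a median log2 fold change of -0.34. These were LAMA5, LAMB1 and LAMC1, the chains of laminin-511, with log2 fold changes of -0.36, -0.25 and -0.34. Against Parent the values were -0.27, -0.0014 and -0.14, and LAMB1 was not called. LAMB1 and LAMC1 were called higher in NC than in Parent, with log2 fold changes of 0.25 and 0.19. LAMB1 was thus at 107 FPKM in Parent, 128 in NC and 107 after miR-4711-5p.

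Among 16 partners of the hemidesmosome and the basement membrane 14 were tested. Against NC 11 were lower and none was higher, beside 21.2% and 18.4% of all genes tested, with a median log2 fold change of -0.28. The 11 became 7 and 6 without the first and the second miR-4711-5p library. COL17A1, the transmembrane collagen of hemidesmosomes, went from 340.3 and 325 FPKM in Parent and 315 and 303 in NC to 192 in both miR-4711-5p libraries (log2 fold change against NC -0.68, limma adjusted p = 3.81e-05). COL7A1, the collagen of anchoring fibrils, was 1.60-fold lower than in NC (limma adjusted p = 0.000316) and BCAM, a receptor for laminin α5, was 1.57-fold lower (limma adjusted p = 0.00208). The cytolinkers PLEC and DST had log2 fold changes of -0.17 and -0.07 against NC and did not pass the threshold. Against Parent 10 of the 14 were lower and 2 were higher, beside 24.7% and 18.7% of all genes tested. The 2 were COL4A5 and COL4A6, with log2 fold changes of 0.42 and 0.17 against Parent. Both were also called higher in NC than in Parent (0.54 and 0.34).

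Of 26 adaptors and kinases of integrin adhesions 24 were tested, and 13 were lower and 2 higher than in NC, with a median log2 fold change of -0.24. The 2 higher genes were BCAR1 and TNS3, with log2 fold changes of 0.38 and 0.21 (limma adjusted p = 0.00106 and 0.0186). The 2 became 1 in each fit that left out an NC or a miR-4711-5p library. FERMT1, the kindlin of epithelial cells that binds β chain tails, had 58.2 and 58.4 FPKM in Parent, 50.0 and 48.6 in NC and 35.0 and 33.1 after miR-4711-5p (log2 fold change against NC -0.52, limma adjusted p = 0.000223). FERMT2, a related kindlin, was at 9.24 ± 1.05 FPKM in Parent, 18.3 ± 0.280 in NC and 12.5 ± 0.0233 after miR-4711-5p (SD, n = 2 each), and so was lower than in NC and higher than in Parent. ACTN4, an actin crosslinker, was 1.43-fold lower than in NC (limma adjusted p = 0.000326) and TGFB1I1, a paxillin relative, 1.52-fold lower (limma adjusted p = 0.000739). TLN2, a low-expressed talin, was at 4.79 FPKM in Parent, 2.72 in NC and 1.16 after miR-4711-5p (limma adjusted p = 0.000462 against NC). It was thus already lower in NC than in Parent (log2 fold change -0.64, limma adjusted p = 0.00317). TLN1 had a log2 fold change of 0.12 against NC and did not pass the threshold.

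Other matrix ligands moved in both directions. Of 11 listed, 7 were tested, and 3 were higher and 1 was lower than in NC, with a median log2 fold change of -0.11. With a filter of 5 FPKM 1 was higher. THBS1, thrombospondin-1, was at 53.6 and 50.8 FPKM in Parent, 58.4 and 56.5 in NC and 107 and 101 after miR-4711-5p (log2 fold change against NC 0.85, limma adjusted p = 3.49e-05). FN1, fibronectin, rose from 3.47 ± 0.276 FPKM in NC to 5.82 ± 0.623 (SD, n = 2 each, limma adjusted p = 0.00320). TGFB3, a TGF-β ligand, was the further gene that rose (log2 fold change 0.48, limma adjusted p = 0.0170). SPP1, osteopontin, was 1.63-fold higher in NC than in Parent and 1.95-fold lower with miR-4711-5p than in NC (limma adjusted p = 0.000531).

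**Figure D4:**
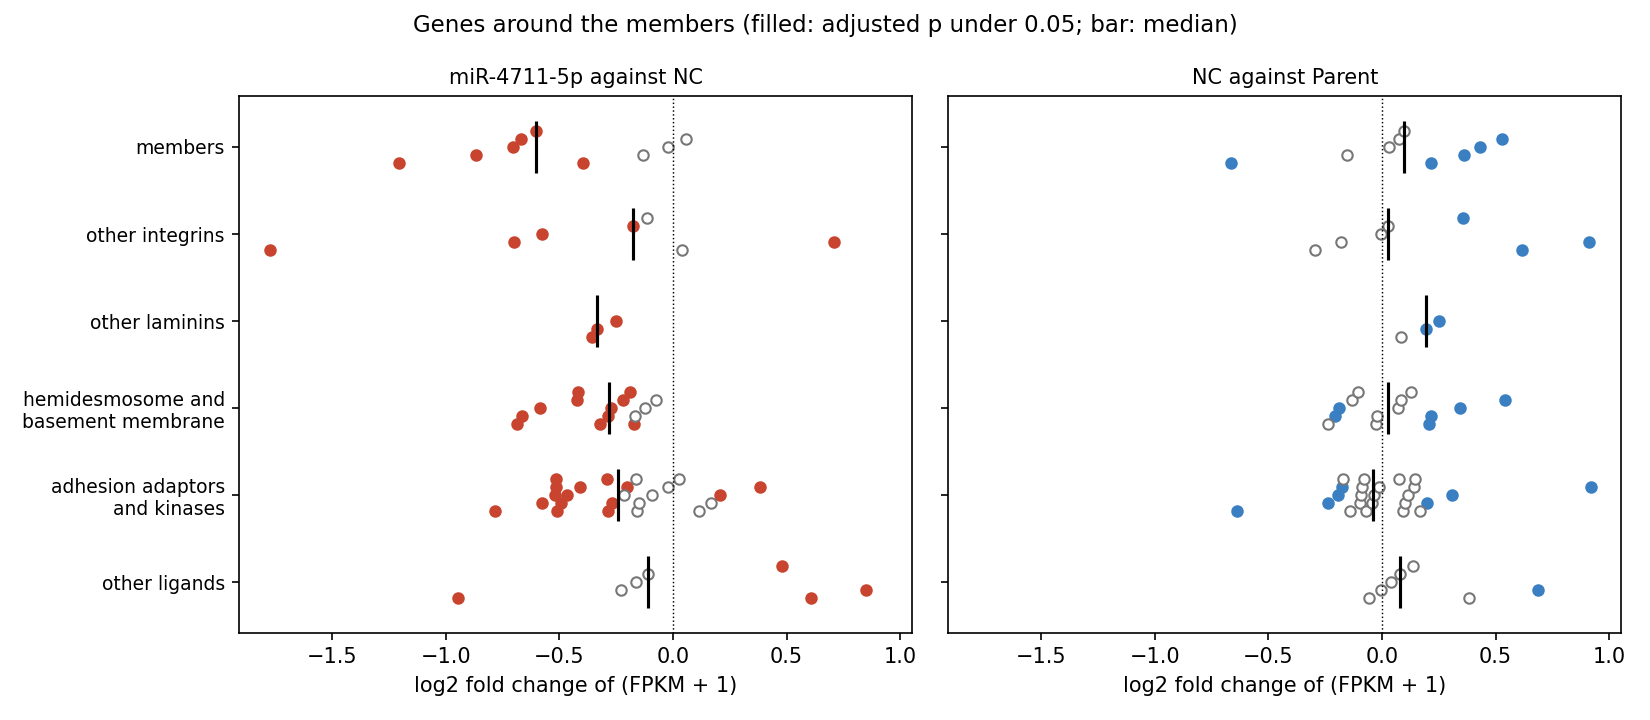
Log2 fold changes of (FPKM + 1) of the tested genes in each list (points, filled where the adjusted p is under 0.05) with the list median (bar), for miR-4711-5p against NC and for NC against Parent. The median of the 9 members is -0.60 on the left and 0.10 on the right, and all 3 further laminin chains tested are left of 0 against NC.

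ITGB6, the member with the largest change against NC, was used to look for genes with a like profile over the 6 libraries. Among 6605 other genes over 10 FPKM in Parent, the profiles closest to it by Euclidean distance were those of CCDC69 (distance 0.139), ANXA10 (0.172), TIMP3 (0.174), DTX4 (0.185) and TIMP2 (0.221). Like ITGB6, these 5 were higher in NC than in Parent, with log2 fold changes from 0.29 to 0.36, and lower after miR-4711-5p than in NC, from -1.09 to -1.23. TIMP2 and TIMP3 encode inhibitors of matrix metalloproteinases. The likeness of these changes follows from the choice by closeness over the same 6 libraries, and is a description only.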

How the data were processed

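Libraries were prepared by the authors with a stranded mRNA kit, sequenced in single-end mode and mapped to hg19. Each deposited table lists 1 FPKM value for every gene symbol, computed by the authors with Cuffnorm of the Cufflinks package and so scaled to exon length and library size. The submitters' processing notes name TopHat2 2.1.1, Bowtie2 2.3.5.1, SAMtools 1.2 and Cufflinks 2.2.1, and the study's methods give other versions for the first 3 of these. Annotation, strand option and library normalization are not given in the sources used here. Median-of-ratios factors of the deposited values lay between 1.00584 and 1.00715 in all libraries, so the values were already nearly level on that scale. The alternative with these factors could therefore change little. Since these are not counts, count models were left out.

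The test took in the 12040 genes whose average across libraries reached 1 FPKM. It was run on log2(FPKM + 1) by limma 3.58.1 in R 4.3.3, with a trended prior, all 3 groups in 1 fit (3 residual degrees of freedom), two-sided, with Benjamini-Hochberg adjustment at 0.05 over all genes tested. Fold changes in FPKM are ratios of group means without a pseudocount, and log2 fold changes are on the log2(FPKM + 1) scale, which understates changes of low genes. The step was run on simulated data with independent noise and few changed genes, unlike these data, so that run checks the code and not the calls.

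Members and lists were chosen with earlier results of these data known. Named beside the members were KLF5 and from each list up to 5 genes called against NC with a log2 change of at least 0.5 in size, and the 5 genes over 10 FPKM in Parent whose profile, centred on Parent, lay closest to that of the member changed most against NC. LAMA5, LAMB1, LAMC1, PLEC, DST, COL4A5, COL4A6, TLN1, BCAR1, TNS3, TGFB3, CDH5, the epithelial markers and GALK1 were added after their values were seen. Seed matches were searched in GENCODE v44 transcripts lifted to GRCh37, in which 11126 of the tested genes matched by symbol and 914 did not. Mature miRNA sequence is from RefSeq. Alternatives were other pseudocounts, filters, scalings, sample sets and priors, a replicate block and leaving out each library. One gene and a few sites are not reported here.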

Additional observations from a re-analysis of the deposited data

How the results depend on the processing

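Over the alternatives run, 6 members were lower with miR-4711-5p under every setting against NC and against Parent, except that with a change of at least 1.5-fold also required 5 remained called against NC and 4 against Parent, with 0 higher against Parent. For NC against Parent the same requirement left 1 member called and 0 higher. Over all genes it left 1295 called for miR-4711-5p against NC, 1490 for miR-4711-5p against Parent and 501 for NC against Parent, from 4763, 5230 and 3279. Without a filter on low values 2165 genes were called for NC against Parent. With a filter of 5 FPKM, 2737 of 8874 genes were lower and 1736 higher for miR-4711-5p against Parent. For NC against Parent 1883 were then lower and 1262 higher. Leaving out 1 library at a time gave 2815 to 3645 genes for miR-4711-5p against NC, 3164 to 3990 against Parent, and 1355 to 2154 for NC against Parent, and 4 to 5 members for the last. The lone library of a group was then assumed to vary like the others.

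Only changes near 0 turned sign. With 1 library left out, the log2 fold change of LAMB3 against NC ran from -0.051 to 0.0078, positive without the first NC library. For NC against Parent, ITGA3 ran from -0.013 to 0.075, negative without the second Parent library, and KLF5 from -0.083 to 0.038, positive without the second Parent library or, at 0.012, the first NC library. KLF5 was at 0.037 there with upper-quartile factors. Upper-quartile factors raised LAMB3 to a call against Parent (0.14, limma adjusted p = 0.0499) and LAMA3 and LAMB3 to calls in NC against Parent (0.13 and 0.16, limma adjusted p = 0.0458 and 0.0464), and moved the share of higher calls from 43.1% to 55.1% and from 44.4% to 63.1% in these comparisons. ITGB1 for NC against Parent lost its call without the first Parent library (adjusted p = 0.0704) or the first NC library (0.0597).

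Same-numbered libraries did not deviate together (correlations of deviations from -0.0089 to 0.061), so the number is not known to pair them. With a replicate block 4564, 4983 and 2864 genes were called, and 6, 8 and 5 members. The search of any annotated 3′ UTR found 1 member with a match, as did the longest. FPKM keeps no read depth, so no counting error can be given.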

Other observations

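The study's duplex holds a second strand that is the exact complement of miR-4711-5p, whose own seed would match GACATGAA (8mer), GACATGA (7mer-m8) and ACATGAA (7mer-A1). Of the 9 members 3, ITGA2, ITGAV and ITGB6, had such a match in the longest 3′ UTR, each of the 7mer-A1 kind, and 22.2% of the tested genes with a 3′ UTR had one. When any annotated 3′ UTR was searched the numbers were 5 members, with ITGB1 and LAMA3 added, and 24.2% of genes. ITGB1 has a 7mer-m8 in its canonical 3′ UTR at base 484 of 1252 nt, in 18 of 21 coding transcripts. LAMA3 has a 7mer-A1 and an 8mer, each in 1 of 10 coding transcripts and neither in the canonical one. Of these 5 genes ITGB1, ITGB6 and LAMA3 were lower with miR-4711-5p than in NC, and ITGA2 and ITGAV did not pass the threshold. Over all genes tested, with or without such a match, 21.2% were lower against NC. These matches describe the sequence only, and their part in the changes was not tested.

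The cadherin gene CDH5, on the list of endothelial markers, followed an order of groups like that of ITGA5. It was at 0.995 and 0.929 FPKM in Parent, 3.16 and 2.88 in NC and 0.612 and 0.469 with miR-4711-5p. The other endothelial markers PECAM1, VWF and KDR did not exceed 0.319 FPKM in any library.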
